A study of Mus musculus with 6 samples.

Results

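The PPAR and PGC-1 regulators of mitochondria and lipid use described here are 10 genes, *Ppara*, *Pparg*, *Ppard*, *Rxra*, *Ppargc1a*, *Ppargc1b*, *Esrra*, *Nrf1*, *Tfam* and *Polg*, taken by symbol from the expression tables of a mouse study of autosomal dominant polycystic kidney disease (ADPKD). They are 10 of the 55367 gene symbols listed in each library, and each of the 10 had a value in every library. The study isolated kidney cells with Dolichos biflorus lectin (DBA), a plant lectin that binds collecting duct epithelium, and sequenced their polyA RNA in 3 groups of 2 libraries, all labelled Day115. The question was how the cells differ with the loss of *Pkd1* and with a nanoparticle treatment. Values are FPKM, which divide the fragments of a gene by its exon length and the size of the library, so levels can be compared between genes per length.

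WT mice are *Pkd1*+/+ in the study's methods and received saline. ADPKD mice carry the genotype *Pkd1*−/−, made in male *Pkd1*fl/fl;Cre/Esr1+ mice by tamoxifen on postnatal days 25 and 28, and received saline. ADPKD+MMPP mice have the same induced knockout and received MMPP, a manganese-chelated melanin-like nanoparticle coated with polyethylene glycol, by vein every 4 days from day 55. The sources give the MMPP dose in 2 ways, so no dose is stated here, and they do not say separately whether WT mice had tamoxifen. The promoter that drives Cre/Esr1 is not given in the sources used here. The labels call the cells kidney tubular epithelial cells, while the same extraction text speaks of both DBA-positive cells and whole kidney RNA. No label says whether the 2 libraries of a group come from separate animals or pools, so p-values measure the spread between these libraries, which may be technical.

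As background, the PPARs are nuclear receptors that bind fatty acids and their derivatives and act on DNA as pairs with a retinoid X receptor. PGC-1α and PGC-1β are coactivators that such receptors, ERRα and NRF1 recruit, and together they set the transcription of nuclear genes for fatty acid oxidation, respiration and the copying of mitochondrial DNA. Kidney tubules rely on mitochondria for ion transport, and proximal tubule cells burn fatty acids in particular.

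The targeted gene was read first. *Pkd1*, which encodes polycystin-1, stood at 17.7 and 17.2 FPKM in WT, 7.64 and 8.91 FPKM in ADPKD, and 4.34 and 3.99 FPKM in ADPKD+MMPP. Every library from knockout mice lay below both WT libraries. *Pkd1* has 10 annotated transcripts. Tested protein-coding genes with 10 transcripts had a median log2 change of −1.14 in ADPKD+MMPP against WT and −0.03 in ADPKD against WT. The level of *Pkd1* in ADPKD+MMPP is therefore no separate check of that label.

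The ADPKD+MMPP libraries stood apart from the other 4. Low FPKM values multiplied by exon length sat on a ladder of whole reads, and the spacing of that ladder put WT at 30.6 and 31.0 M reads, ADPKD at 33.1 and 32.1 M, but ADPKD+MMPP at only 11.8 and 10.9 M. Among values under 8 reads, odd read numbers made up 33.4% to 35.2% in the WT and ADPKD libraries and 6.48% and 6.64% in ADPKD+MMPP. Across 14862 genes, Pearson's r of log2(FPKM + 1) was 0.984, 0.958 and 0.992 between the 2 libraries of WT, ADPKD and ADPKD+MMPP, and 0.590 to 0.679 between ADPKD+MMPP and other libraries (genes are not independent replicates). The median log2 change of ADPKD+MMPP against ADPKD was 1.10 over the 1309 tested genes with 1 annotated transcript, −0.40 over the 1341 genes with 5 transcripts and −1.56 over the 876 genes with 13 or more, while ADPKD against WT had medians of 0.03, 0.05 and −0.05 in the same bins. What sets these libraries apart cannot be told apart from the treatment, because both of them are the treated ones. Whether their reads were counted in another way is not given in the sources used here. Each result with ADPKD+MMPP rests on both of these libraries and has no version without them. The members and the lists of related genes are therefore given as deposited and after each library was centred on the median of protein-coding genes of like structure, either in 20 bins of the share of exon bases that lie in exactly 1 transcript or in bins of transcript number. The order of levels and the marker results are given only as deposited.

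The cell label was read against marker genes. Of 13 principal cell markers, whose cells bind DBA, 12 reached 1 FPKM in each WT and ADPKD library and 11 in each ADPKD+MMPP library, led by *Aqp2*, the vasopressin-regulated water channel, except in 1 ADPKD library led by *Krt8*. Their summed FPKM was 2558 and 3401 in WT, 4390 and 3331 in ADPKD, and 9631 and 9758 in ADPKD+MMPP. The sum in ADPKD holds much keratin, since *Krt8* had 227 and 316 FPKM in WT but 1187 and 1494 FPKM in ADPKD, and *Krt18* 211 and 264 FPKM in WT but 667 and 857 FPKM in ADPKD. The same holds for ADPKD+MMPP, where *Krt8* had 2574 and 2729 FPKM and *Krt18* 1505 and 1454 FPKM. *Aqp2* stood at 1267 and 1776 FPKM in WT and at 1392 and 677 FPKM in ADPKD, where replicate 2 lay below both WT libraries. Markers of other cells were present too. The 17 proximal tubule markers summed to 1130 and 804 FPKM in WT, 2195 and 1577 in ADPKD, and 23535 and 22407 in ADPKD+MMPP, led by *Gpx3* in the first 2 groups and *Kap* in the last. The sum in ADPKD holds much *Gpx3*, which had 378 and 396 FPKM in WT but 1274 and 1300 FPKM in ADPKD. The sum in ADPKD+MMPP is mostly *Kap*, at 12822 and 12116 FPKM, and *Gpx3*, at 8789 and 8321 FPKM. The median of the 17 markers was 102 and 103 FPKM there, against 9.80 and 2.34 FPKM in ADPKD. The 5 podocyte markers summed to 900 and 1231 FPKM in WT, 205 and 90.8 in ADPKD, and 89.7 and 87.2 in ADPKD+MMPP, led by *Podxl* in every library. In ADPKD+MMPP *Podxl* made up 84.1 and 80.8 FPKM of that sum, and the median of the 5 markers was 0.675 and 0.865 FPKM, against 24.5 and 6.53 FPKM in ADPKD. The libraries thus hold RNA of cells other than collecting duct.

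**Figure D1:**
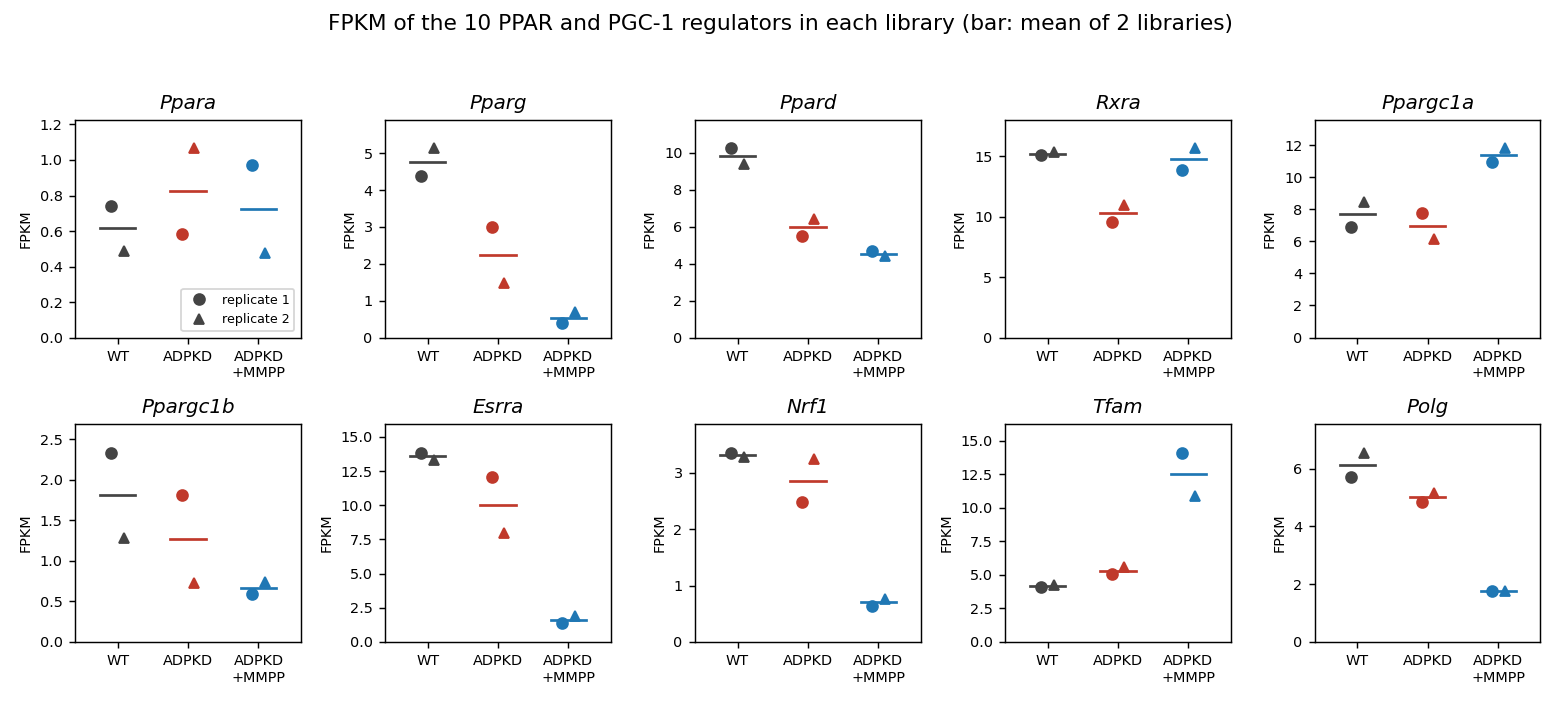
FPKM of each of the 10 genes (y axes, each from 0) in WT, ADPKD and ADPKD+MMPP (x axes); circles are replicate 1, triangles replicate 2 and bars the mean of 2 libraries. *Esrra*, *Nrf1* and *Polg* are lowest in both ADPKD+MMPP libraries, *Tfam* is highest there, and *Ppara* overlaps between all groups.

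On GRCm38, GENCODE vM21 places *Ppara* at chr15:85734983-85802819, *Pparg* at chr6:115360951-115490399, *Ppard* at chr17:28232700-28301474, *Rxra* at chr2:27676440-27762957 and *Nrf1* at chr6:30047988-30153458, all on the plus strand. *Ppargc1a* at chr5:51454250-51567726, *Esrra* at chr19:6910977-6921813, *Tfam* at chr10:71225464-71238280 and *Polg* at chr7:79446231-79466362 lie on the minus strand.

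In WT the order of the levels, by mean FPKM with the SD of 2 libraries, ran from *Rxra* (15.2 ± 0.205) through *Esrra* (13.6 ± 0.365), *Ppard* (9.81 ± 0.603), *Ppargc1a* (7.68 ± 1.11), *Polg* (6.14 ± 0.590), *Pparg* (4.76 ± 0.526), *Tfam* (4.17 ± 0.119), *Nrf1* (3.32 ± 0.0561) and *Ppargc1b* (1.81 ± 0.742) to *Ppara* (0.615 ± 0.179). No neighbours in that order overlapped. In ADPKD *Rxra* (10.3 ± 0.988) still came first, and *Rxra* and *Esrra* overlapped, as did each neighbour from *Ppargc1a* through *Ppard* and *Tfam* to *Polg* and from *Nrf1* through *Pparg* and *Ppargc1b* to *Ppara*. In ADPKD+MMPP *Rxra* (14.7 ± 1.28), *Tfam* (12.5 ± 2.30) and *Ppargc1a* (11.4 ± 0.597) led, each overlapping the next, and *Esrra* moved from the second place to the sixth (1.62 ± 0.358). *Pparg* was last there, at 0.542 ± 0.199 FPKM, and the 4 lowest genes overlapped as neighbours.

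Of the 10 genes, 9 passed the filter of at least 1 FPKM in at least 2 libraries and entered a limma fit of all 6 libraries and 14862 genes, made on log2(FPKM + 1). Fold changes are on that scale, which understates the change of low genes. Calls needed a 1.5-fold difference up or down (0.58 on the log2 scale) together with an unadjusted P below 0.05, and adjusted p is Benjamini-Hochberg over all 14862 genes. The publication states a fold of 1.5 and P below 0.05 for its own calls, which were made with DESeq2. It does not say whether that P was adjusted.

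In ADPKD against WT, 2 of the 9 tested members fell (*Pparg* and *Ppard*), none rose and 7 were not called. That is no larger a share than among all tested genes, of which 26.7% were called, 14.2% higher and 12.5% lower. The median log2 change was −0.32 over the 9 members and 0.03 over all tested genes. Libraries of ADPKD and WT did not overlap for 7 of the 9 members, against 67% of all tested genes. With adjusted p under 0.05 in place of P, 1 of the 9 was called (*Ppard*), against 22.5% of all tested genes. Fewer cells of a type and less RNA per cell cannot be told apart in these bulk samples.

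Of the receptors, *Ppara*, the PPAR that drives fatty acid oxidation in liver and kidney, was low. It measured 0.742 and 0.488 FPKM in WT, 0.583 and 1.07 FPKM in ADPKD, and 0.971 and 0.478 FPKM in ADPKD+MMPP. The groups overlapped throughout, and these values rest on 20 to 131 reads a library. *Ppara* was not among the tested genes. With no filter its log2 change was 0.17 in ADPKD against WT (SE 0.21) and −0.08 in ADPKD+MMPP against ADPKD, neither of them called.

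*Pparg* encodes the PPAR best known for adipocyte formation and is also expressed in the collecting duct. It measured 4.39 and 5.13 FPKM in WT, 3.0 and 1.47 FPKM in ADPKD, and 0.402 and 0.683 FPKM in ADPKD+MMPP. The 3 groups did not overlap, with WT highest and ADPKD+MMPP lowest. In ADPKD against WT *Pparg* fell by 0.87 on the log2 scale (SE 0.25, 1.83-fold lower), with an unadjusted P of 0.0149 and an adjusted p of 0.0538 from limma. Without ADPKD replicate 2 the change was −0.52 and without WT replicate 2 it was −0.78, and the call was lost both times. None of the 6 adipocyte markers passed the filter, *Lep* was at 0 in every library and their summed FPKM was at most 1.69.

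*Ppard* encodes the most broadly expressed PPAR. It measured 10.2 and 9.38 FPKM in WT, 5.50 and 6.44 FPKM in ADPKD, and 4.67 and 4.39 FPKM in ADPKD+MMPP. Both ADPKD libraries lay below both WT libraries, and both ADPKD+MMPP libraries lay below the ADPKD ones. In ADPKD against WT it fell by 0.64 on the log2 scale (SE 0.13, 1.55-fold lower, adjusted p = 0.0195, limma). The fall is close to the threshold of fold change, and the call was lost without WT replicate 1 (−0.58) and without ADPKD replicate 1 (−0.54).

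*Rxra*, the retinoid X receptor that partners all 3 PPARs, had 15.1 and 15.4 FPKM in WT, 9.60 and 11 FPKM in ADPKD, and 13.8 and 15.6 FPKM in ADPKD+MMPP. ADPKD lay below both other groups, which overlapped. Its log2 change in ADPKD against WT was −0.52 (SE 0.13, adjusted p = 0.0348, limma), short of the threshold of fold change. Rescaling each library to a common sum or quantile normalization took it past the threshold, to −0.64 and −0.62, as did leaving out ADPKD replicate 2 (−0.61).

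Neither coactivator gene was called in ADPKD against WT. *Ppargc1a*, which encodes PGC-1α, the inducible coactivator of mitochondrial biogenesis, had 6.90 and 8.47 FPKM in WT, 7.78 and 6.13 FPKM in ADPKD, and 10.9 and 11.8 FPKM in ADPKD+MMPP. WT and ADPKD overlapped (log2 change −0.13, 95% interval −0.53 to 0.28), and both ADPKD+MMPP libraries lay above all others. *Ppargc1b*, which encodes PGC-1β, had 2.34 and 1.29 FPKM in WT, 1.82 and 0.727 FPKM in ADPKD, and 0.594 and 0.735 FPKM in ADPKD+MMPP, on as few as 28 reads. Its WT and ADPKD libraries overlapped, and the log2 change of −0.32 in ADPKD against WT (95% interval −1.04 to 0.39) was not called, though without ADPKD replicate 1 it was −0.68 and past the thresholds.

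*Esrra* encodes ERRα, the orphan receptor through which PGC-1α acts on respiratory genes. It measured 13.9 and 13.3 FPKM in WT, 12.1 and 7.96 FPKM in ADPKD, and 1.36 and 1.87 FPKM in ADPKD+MMPP. ADPKD lay under WT with a wide gap between its own libraries, and ADPKD+MMPP lay far under both. Without treatment, in ADPKD against WT, the log2 change of −0.43 (SE 0.21, adjusted p = 0.187, limma) was not called, and without ADPKD replicate 1 it was −0.70 and past the thresholds. *Nrf1*, the nuclear respiratory factor that activates genes of the respiratory chain, had 3.36 and 3.28 FPKM in WT, 2.48 and 3.24 FPKM in ADPKD, and 0.642 and 0.767 FPKM in ADPKD+MMPP. Its ADPKD libraries were lower than WT by little in replicate 2, and the log2 change of −0.17 was not called.

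*Tfam*, which packages mitochondrial DNA and starts its transcription, had 4.08 and 4.25 FPKM in WT, 5.03 and 5.59 FPKM in ADPKD, and 14.1 and 10.9 FPKM in ADPKD+MMPP. The 3 groups did not overlap, in the reverse order of *Pparg*. *Polg*, the catalytic subunit of the mitochondrial DNA polymerase, had 5.72 and 6.56 FPKM in WT, 4.84 and 5.17 FPKM in ADPKD, and 1.77 and 1.75 FPKM in ADPKD+MMPP. The groups did not overlap here either. From WT to ADPKD, neither was called, with log2 changes of 0.29 for *Tfam* (adjusted p = 0.22) and −0.25 for *Polg* (adjusted p = 0.185, limma). Of the *Polg* exon bases, 8.57% also lie in exons of *Fanci* on the opposite strand, and without stated strand in the counting, reads from the pair cannot be told apart. *Esrra* shares 1.66% of its exon bases with *Trmt112* on the opposite strand and 2.07% with *Mir6990* on its own.

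With MMPP, more of the members were called, as were most genes. In ADPKD+MMPP against ADPKD, 2 of the 9 tested members rose (*Ppargc1a* and *Tfam*), 4 fell (*Pparg*, *Esrra*, *Nrf1* and *Polg*) and 3 were not called, while 70.9% of all tested genes were called, 27.9% higher and 43% lower. The median log2 change was −0.41 over the members and −0.36 over all tested genes. Of the calls, 39.3% were higher as deposited and 54.0% after quantile normalization, which moved the median of all tested genes to 0.10, while a common sum moved it to −0.73. Libraries did not overlap for 8 of the 9 members, against 87.8% of all tested genes, and with adjusted p in place of P 6 were called, against 70.3%. Centred by exon share, 3 of the 9 were higher and 1 lower, against 58.3% of the 12375 protein-coding genes called, and by transcript number 4 were higher and 1 lower, against 63.9%.

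*Esrra* fell furthest, by 2.06 on the log2 scale (SE 0.21, 4.16-fold lower, adjusted p = 0.000346, limma). It kept its call under both centrings, at −2.47 by exon share and −1.46 by transcript number. *Ppargc1a* rose by 0.64 (SE 0.16, 1.56-fold, adjusted p = 0.0128) and was called higher under both centrings, at 1.29 and 1.24. RNA of the receptor ERRα and of its coactivator PGC-1α thus changed in opposite directions as deposited and under both centrings. The rise of *Ppargc1a* as deposited was lost without ADPKD replicate 2 (0.49), without ADPKD+MMPP replicate 2 (0.59) and with a common sum (0.39).

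The other called members did not hold under both centrings. *Tfam* rose by 1.09 on the log2 scale (SE 0.16, adjusted p = 0.00125, limma), and was −0.03 centred by exon share and 1.68 centred by transcript number. *Pparg* fell by 1.03 (SE 0.25, adjusted p = 0.0111), on 14 and 22 reads in the ADPKD+MMPP libraries, and was 0.08 and −0.09 after the centrings. *Nrf1* fell by 1.17 (adjusted p = 0.000618) and *Polg* fell by 1.12 (adjusted p = 0.000413), and neither was called after centring, at −0.51 and 0.48 for *Nrf1* and −0.48 and 0.53 for *Polg*. *Nrf1* and *Polg* have 20 and 18 annotated transcripts, more than the other members, which have 3 to 9. Quantile normalization also ended the calls of *Pparg* (−0.37), *Nrf1* (−0.52) and *Polg* (−0.47).

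Of the 3 members not called as deposited, *Rxra* had a log2 change of 0.48 (SE 0.13, adjusted p = 0.0166, limma) and was called higher after both centrings, at 1.59 and 1.31. It was also past the threshold with median-of-ratios, upper-quartile and quantile scaling. *Ppard* stood at −0.33 (95% interval −0.65 to −0.01), and was −0.35 by exon share but 0.81 and called higher by transcript number. *Ppargc1b* stood at −0.41 (95% interval −1.12 to 0.31), and was 1.37 and called higher by exon share but −0.53 by transcript number.

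The comparison of ADPKD+MMPP with WT shares its treated libraries with the one above and its WT libraries with the first, so the 3 are not independent. Of the 9 members, 1 was higher (*Tfam*, 1.37, SE 0.16) and 6 were lower, while 73.9% of all tested genes were called, 30.1% higher and 43.8% lower. Libraries did not overlap for 8 of the 9 members, against 91.9% of all tested genes, and with adjusted p in place of P 6 were called, against 73.4%. By exon share 3 were higher and 5 lower, against 62.6% of all genes called, and by transcript number 3 were higher and 3 lower, against 67.4%. *Esrra* fell by 2.49 on the log2 scale and *Pparg* fell by 1.90 (SE 0.25), and both were called lower under both centrings, at −2.94 and −1.90 for *Esrra* and −0.77 and −0.94 for *Pparg*. *Ppargc1a* at 0.52 and *Rxra* at −0.05 were not called as deposited, and were called higher under both centrings, at 1.16 and 1.10 for *Ppargc1a* and 1.09 and 0.75 for *Rxra*. *Ppard* (−0.97), *Nrf1* (−1.34) and *Polg* (−1.37) were lower as deposited and by exon share and changed sign by transcript number, at 0.13, 0.42 and 0.40. *Ppargc1b* (−0.73, adjusted p = 0.0577, limma) was 1.20 by exon share and −0.91 by transcript number, and as deposited lost its call without WT replicate 1 or either ADPKD+MMPP library. *Tfam* was not called by exon share (0.23). The median log2 change was −0.97 over the members and −0.36 over all tested genes.

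**Figure D2:**
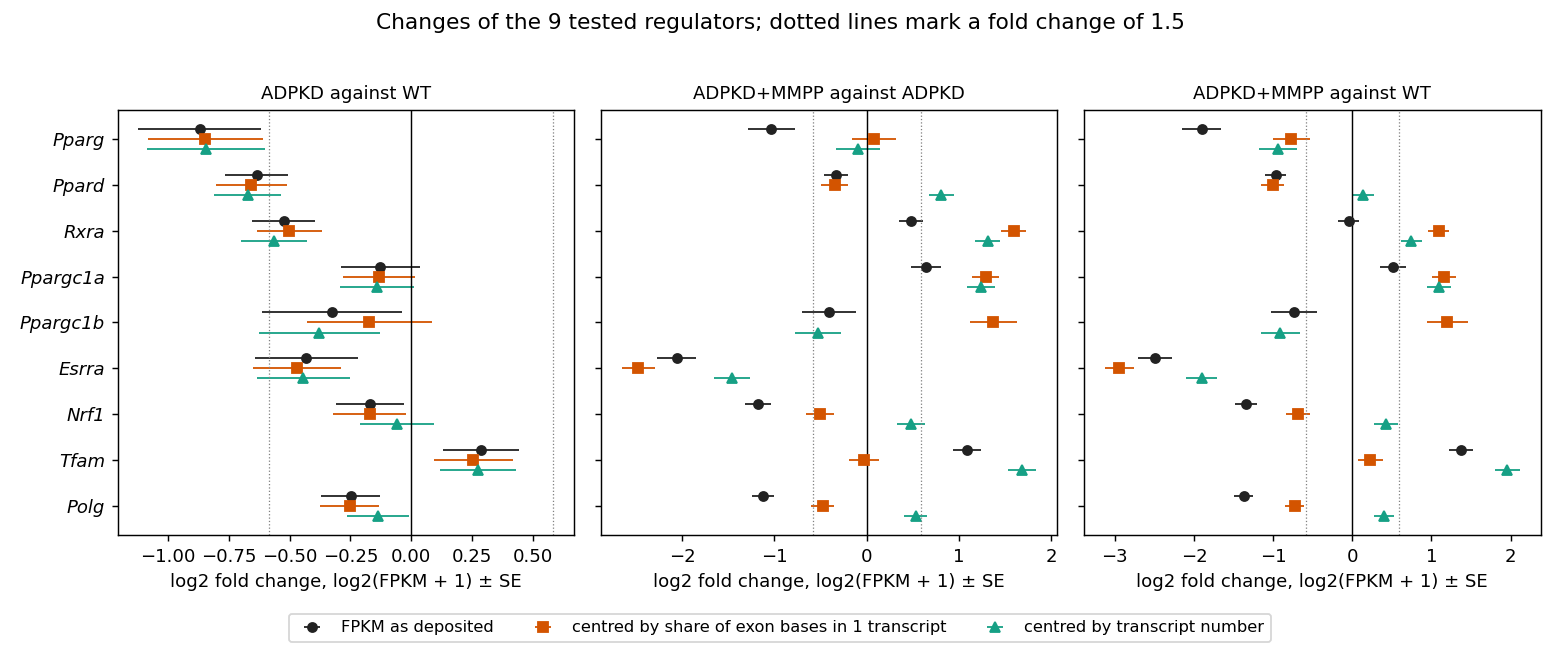
Log2 fold change with its SE (x axes) of the 9 tested genes (y axes) in each comparison, as deposited (circles), centred by exon share (squares) and centred by transcript number (triangles); dotted lines mark a fold change of 1.5. For ADPKD against WT the 3 readings lie close together, and with MMPP only *Esrra* below 0 and *Ppargc1a* and *Rxra* above it lie past a dotted line under both centrings in both comparisons.

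For the lists in ADPKD+MMPP against WT, the shares of all genes called are those given for the members, 73.9% as deposited, 62.6% by exon share and 67.4% by transcript number. Partners and coregulators were then followed as a list of 25 genes, of which 24 were tested. From WT to ADPKD, 1 rose and none fell by the thresholds, 4.17% in all against 26.7% of all tested genes, with a median log2 change of −0.24 against 0.03 over all tested genes. The list median ran from −0.25 to −0.11 when 1 library was left out. The gene that rose was *Nrip1*, which encodes the corepressor RIP140 (0.97, SE 0.20, adjusted p = 0.0197, limma), at 7.13 and 9.22 FPKM in WT, 14.5 and 19.6 FPKM in ADPKD, and 6.17 and 7.07 FPKM in ADPKD+MMPP. ADPKD was highest in both libraries, and both ADPKD+MMPP libraries lay below both WT libraries as deposited, a difference that was not called (−0.26) and that became 0.87 by exon share and 0.86 by transcript number, both called higher. At an unadjusted P under 0.05 alone more partners would pass, such as the corepressor gene *Ncor1* at −0.36.

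Against ADPKD, with MMPP, the list had 2 higher and 18 lower as deposited, with a median of −1.56, where 70.9% of all tested genes were called. It had 3 higher and 5 lower of 24 by exon share, with a median of −0.13, where 58.3% of all genes were called, and 4 higher and 11 lower by transcript number, with a median of −0.57, where 63.9% were. Among the lower genes were the arginine methyltransferase gene *Prmt1* (−2.71) and *Hcfc1* (−2.58), a host cell factor that binds PGC-1 coactivators, and *Yy1* (1.14) was the highest under the naming rule. *Prmt1* was called lower under both centrings and *Yy1* under neither. *Rxrb*, the sister receptor of *Rxra*, fell by 1.93, from 11.4 and 12.4 FPKM in ADPKD to 2.0 and 2.81 FPKM in ADPKD+MMPP, and was −0.28 and not called by exon share and −0.63 and called by transcript number, whereas *Rxrg* was at most 0.16 FPKM in any library. The ERR genes *Esrrb* (−1.41) and *Esrrg* (−1.75) and the PGC-1-related coactivator gene *Pprc1* (−2.26) were lower as deposited, *Ncor1* fell by 2.03, and all 4 lay between −0.32 and 0.19 by exon share, where none was called. By transcript number *Esrrg* (−1.15) and *Pprc1* (−0.86) were called lower. *Perm1*, a muscle regulator under PGC-1α control, rose by 1.26 and was 0.10 under both centrings. Against WT the list had 2 higher and 18 lower as deposited, with a median of −1.68, 2 higher and 9 lower by exon share, with a median of −0.37, and 4 higher and 13 lower by transcript number, with a median of −0.66.

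Upstream of PGC-1α, 25 of 26 genes of AMPK, the sirtuins and inducers were tested. Without treatment, in ADPKD against WT, 2 rose, the AMPK γ2 subunit gene *Prkag2* (0.78, adjusted p = 0.0181) and the AMPK kinase gene *Camkk2* (0.66, adjusted p = 0.0109, limma), 1 fell, the thyroid hormone receptor gene *Thra* (−0.80, adjusted p = 0.0133), and the median was −0.13. With 1 library left out this median ran from −0.19 to −0.06. Centred, the list had 2 higher and 3 lower by exon share and 1 higher and 2 lower by transcript number there. As deposited 12% were called, against 26.7% of all tested genes, and 27.3% and 27.2% of all genes were called after the centrings. With MMPP against ADPKD 6 rose and 13 fell as deposited, with a median of −0.69. Calls were 6 higher and 11 lower by exon share (median −0.34) but 11 higher and 8 lower by transcript number (median −0.03), so the balance turned round. That is 19 of 25 called as deposited, 17 by exon share and 19 by transcript number, against 70.9%, 58.3% and 63.9% of all genes. The catalytic subunits of AMPK parted. *Prkaa2* went from 7.73 and 6.54 FPKM in ADPKD to 33.4 and 31.1 FPKM in ADPKD+MMPP (2.03), while *Prkaa1* went from 7.86 and 9.84 FPKM to 0.0728 and 0 (−3.24). Only 0.795% of the *Prkaa1* exon bases lie in exactly 1 transcript, against 100% for *Prkaa2*. *Prkaa1* rests on 4 and 0 reads in ADPKD+MMPP, against 1210 and 1468 in ADPKD. Both calls held under both centrings. Genes with 2 transcripts, as *Prkaa1* has, had a median change of 0.65, so centring by transcript number could not lessen its fall. *Sirt1*, the deacetylase that acts on PGC-1α, fell by 3.24, from 19.0 and 19.8 FPKM to 1.02 and 1.31 FPKM, and stayed lower at −1.52 and −2.30 after centring. The CREB coactivator gene *Crtc2* fell by 2.86 and *Prkag1* rose by 1.33, both called under both centrings, whereas *Nampt*, the NAD salvage enzyme gene, rose by 1.14 and was 0.03 by exon share. *Sirt3*, the mitochondrial deacetylase gene, stood at −0.47 and was not called. Against WT 5 were higher and 14 lower as deposited, with a median of −0.85, 7 higher and 14 lower by exon share (−0.75), and 10 higher and 11 lower by transcript number (−0.06). *Stk11*, which encodes the AMPK kinase LKB1, fell by 3.11 and was called lower under both centrings, at −1.75 and −1.69.

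The PPAR target genes of lipid handling came next. Of 42 listed genes 35 were tested, and in ADPKD against WT 7 rose and 1 fell, 22.9% in all against the background of 26.7%, with a median of 0.09. The median was −0.10 without WT replicate 2, −0.08 without ADPKD replicate 1 and up to 0.23 without another library, so its sign rests on single libraries. Calls were 7 higher and 2 lower by exon share and 6 higher and 3 lower by transcript number, where 27.3% and 27.2% of all genes were called. *Vnn1*, a pantetheinase gene and PPARα target, rose from 1.34 and 1.18 FPKM in WT to 8.99 and 4.52 FPKM in ADPKD (1.72, SE 0.28, adjusted p = 0.0108, limma), and *Plin2*, the lipid droplet coat gene, from 14 and 14.2 FPKM to 31.5 and 30.1 FPKM (1.07, SE 0.11, adjusted p = 0.00388). The other rises included *Acot1* (0.91), *Pdk4* (0.78), the kinase that holds back glucose oxidation, and *Fabp4* (0.63). Lipoprotein lipase, *Lpl*, fell from 60.2 and 65.5 FPKM to 15.3 and 7.06 FPKM (−2.47, SE 0.33, adjusted p = 0.00619). *Cpt1a* (−0.26), the rate-setting gene of mitochondrial fatty acid entry, was not called, nor were *Acadm* (0.01), *Ehhadh* (0.36), *Angptl4* (0.05), *Cyp4a10* (0.17) and *Cyp4a14* (0.23).

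With MMPP against ADPKD, 18 PPAR target genes rose and 10 fell, 80% in all against 70.9% of all tested genes, with a median of 1.42 against −0.36 over all tested genes. The median was lower after centring, at 0.57 with 17 higher and 8 lower by exon share and 0.88 with 20 higher and 6 lower by transcript number, where 58.3% and 63.9% of all genes were called. With no filter, which lets in the listed genes near 0 FPKM, the median of the list was 0.12. *Cyp4a12a*, a fatty acid ω-hydroxylase gene, went from 1.67 and 0.245 FPKM to 65.5 and 59.8 FPKM (5.12, SE 0.44), and *Ehhadh*, the peroxisomal bifunctional enzyme gene, from 9.01 and 8.90 FPKM to 98.4 and 108 FPKM (3.39, SE 0.15). *Acaa1b* rose by 3.65, *Acadm* by 2.16, *Cyp4a14* by 2.07 and *Cpt1a* by 1.42, all called higher under both centrings. *Fabp1* rose by 1.54, from at most 0.273 FPKM to 3.06 and 1.66 FPKM, and was 0.38 and not called under both. The falls were led by *Acadvl* (−3.55), *Hadhb* (−2.07) and *Cd36* (−2.07), enzymes of long-chain oxidation and a fatty acid transporter, of which *Acadvl* and *Hadhb* held under both centrings. *Angptl4* fell by 0.77 and *Fabp4* fell by 0.69, of which *Fabp4* held under both, and *Pdk4* (0.02) and *Cyp4a10* (0.66) were not called. Against WT 20 were higher and 9 lower as deposited, with a median of 1.16, 18 higher and 8 lower by exon share (0.79), and 20 higher and 8 lower by transcript number (1.09), and with no filter the median was 0.50. *Vnn1* (4.17) and the fatty acid transporter gene *Slc27a2* (4.08) were called higher as deposited and under both centrings.

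Proximal tubule markers were mostly higher in the same libraries. Of the 17, 14 were higher and none lower in ADPKD+MMPP against ADPKD, 82.4% in all against 70.9% of all tested genes, with a median log2 change of 3.13, and 15 were higher against WT, where 73.9% of all tested genes were called. *Kap*, the kidney androgen-regulated protein gene of the proximal tubule, was the most abundant, at 12822 and 12116 FPKM in ADPKD+MMPP, and no marker of the 17 was at 0 in any library. Many of the fatty acid genes above are abundant in proximal tubule, and the part of these cells in their change was not tested. From WT to ADPKD, the same markers had 4 higher, 1 lower and a median of −0.40. That is 29.4% in all, close to the 26.7% of all tested genes called there.

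**Figure D3:**
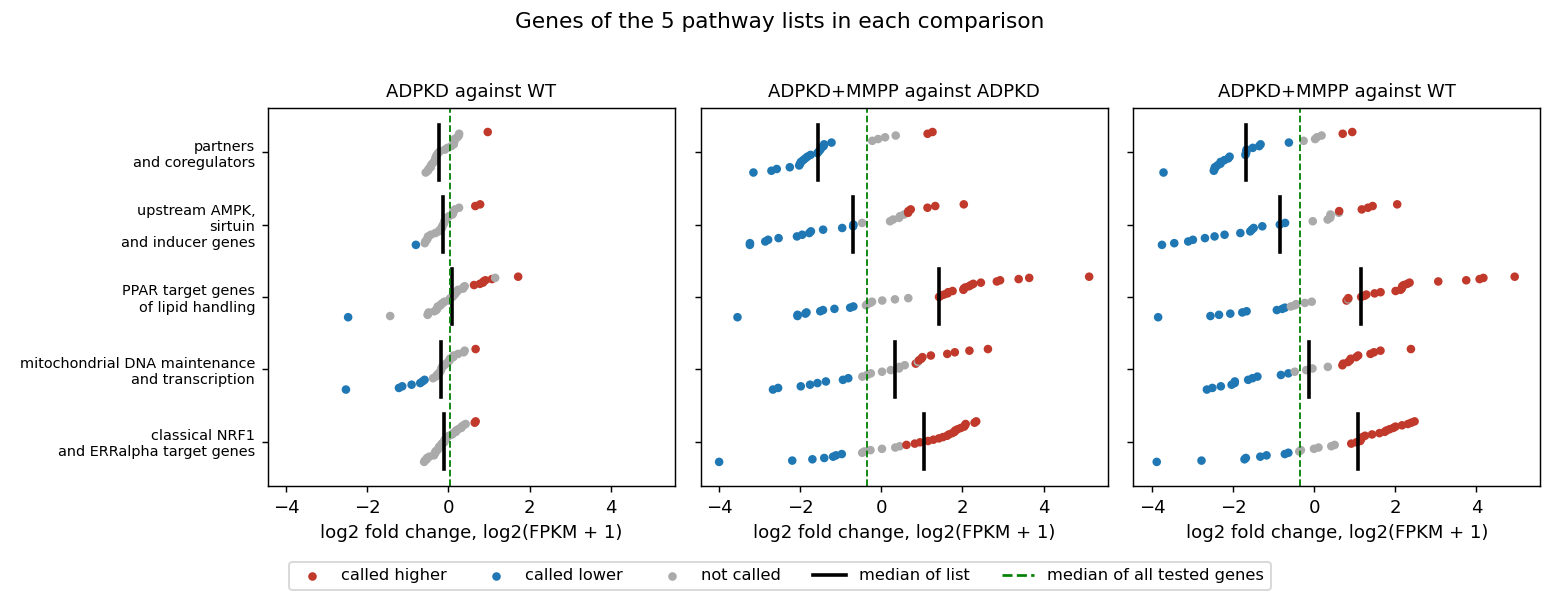
Log2 fold change (x axes) of the tested genes of the 5 lists (y axes) in each comparison as deposited, with genes called higher in red, lower in blue and not called in grey; black bars are list medians and the dashed line is the median of all tested genes. With MMPP against ADPKD the PPAR targets (median 1.42) and the NRF1 and ERRα targets (1.05) lie to the right of that line and the partners and coregulators (−1.56) to its left.

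Genes for the upkeep and transcription of mitochondrial DNA, the group that *Tfam* and *Polg* belong to, were tested for 26 of 32. Without treatment, in ADPKD against WT, 1 rose and 7 fell, 30.8% in all against 26.7% of all tested genes, with a median of −0.18, and the calls were 1 and 7 by exon share and 0 and 6 by transcript number, against 27.3% and 27.2% of all genes. The median ran from −0.28 to −0.05 when 1 library was left out. *Polg2*, the accessory subunit that keeps *Polg* on DNA, fell from 7.97 and 8.61 FPKM in WT to 2.97 and 2.99 FPKM in ADPKD (−1.22, SE 0.11, adjusted p = 0.00338, limma). The mitochondrial topoisomerase gene *Top1mt* fell from 24.8 and 35.1 FPKM to 7.50 and 2.29 FPKM (−2.53, SE 0.46, adjusted p = 0.0144), and *Abat* fell by 0.70.

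The helicase gene *Twnk* (−0.10), the single-strand binding protein gene *Ssbp1* (−0.06), the RNA polymerase gene *Polrmt* (−0.38) and the TFAM partners *Tfb1m* (−0.19) and *Tfb2m* (0.24) were not called in ADPKD. With MMPP against ADPKD 9 genes of the list rose and 8 fell as deposited, with a median of 0.33. That is 65.4% in all against 70.9% of all tested genes. This median ran from 0.13 to 0.51 when 1 library was left out, and from 0.0048 to 0.85 over all alternatives of processing. Calls were 11 higher and 5 lower of 26 by exon share (median 0.44) and 12 higher and 6 lower by transcript number (0.56), where 58.3% and 63.9% of all genes were called. *Tfb2m*, which opens mitochondrial promoters with TFAM, rose from 7.99 and 8.50 FPKM to 14.3 and 17.1 FPKM (0.85) and held under both centrings, at 1.73 and 1.45. *Endog* (2.63), *Abat* (2.17) and *Lrpprc* (1.81) rose and held under both, and *Hsd17b10* (−2.67), *Mpv17* (−2.55) and *Elac2* (−1.76) fell, the first 2 under both centrings. *Twnk* (0.98), *Tfb1m* (1.22), *Polrmt* (−1.58) and *Polg2* (−0.82) were called as deposited and lost the call under at least 1 centring, and *Ssbp1* was at 0.02. Against WT 11 were higher and 11 lower as deposited, with a median of −0.12, which changed sign under both centrings, to 0.03 with 8 higher and 6 lower by exon share and 0.12 with 12 higher and 9 lower by transcript number. *Tk2* fell by 2.30 and was called lower under both, at −0.95 and −1.18. The RNA made by mitochondrial DNA itself is not analysed here, since all 37 mitochondrially encoded symbols are listed at 0 in all libraries.

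The classical NRF1 and ERRα target genes, mostly subunits of the respiratory chain and enzymes of the TCA cycle, were all tested, 32 of 32. From WT to ADPKD, 2 rose, *Tomm70a* (0.67) and the mitochondrial creatine kinase gene *Ckmt1* (0.65, adjusted p = 0.0558, limma), and none fell as deposited, 6.25% in all against 26.7% of all tested genes, with a median of −0.10. Calls were 1 higher and 2 lower by exon share and 2 higher and 1 lower by transcript number, where 27.3% and 27.2% of all genes were called. The median was −0.35 without ADPKD replicate 1 and 0.09 without ADPKD replicate 2, so its sign rests on single libraries. *Cycs*, the cytochrome c gene and a classical NRF1 target, had 32.4 and 29.2 FPKM in WT, 36.0 and 23.0 FPKM in ADPKD, and 121 and 122 FPKM in ADPKD+MMPP. WT lay between the 2 ADPKD libraries, and both ADPKD+MMPP libraries lay above all others. With MMPP against ADPKD 19 rose and 7 fell, 81.3% in all against 70.9% of all tested genes, with a median of 1.05, while *Esrra* and *Nrf1* themselves were lower as deposited. After centring 21 of the 31 protein-coding genes left were higher and 4 lower either way, with medians of 0.94 and 1.18, where 58.3% and 63.9% of all genes were called. *Uqcrfs1* (2.34), *Sdhd* (2.30), *Cox7c* (2.08) and *Cycs* (2.04) rose and held under both. *Mfn2*, the mitofusin gene, fell from 19.1 and 19.6 FPKM to 0.196 and 0.353 FPKM (−4.00) and *Ogdh* by 2.20, and *Alas1* fell by 1.70, of which only *Mfn2* held under both. Against WT 18 were higher and 8 lower as deposited, with a median of 1.09, and 22 were higher and 5 lower under either centring, with medians of 1.0 and 1.09. *Tomm70a* (2.47) was called higher under both, at 1.28 and 2.30, and *Ndufs1* (−1.72) was called lower by exon share (−1.76) but not by transcript number (0.05).

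Other cells also moved with the groups. Without treatment, in ADPKD against WT, 10 of 11 intercalated cell markers, 5 of 5 podocyte markers and 7 of 7 endothelial markers were lower, with medians of −2.05, −2.73 and −1.71, and 7 of 7 tested macrophage markers were higher, with a median of 3.21, where 26.7% of all tested genes were called. Summed FPKM of the intercalated list was 511 and 544 in WT, 267 and 79.3 in ADPKD, and 685 and 711 in ADPKD+MMPP, led by *Rhcg* in every library. In ADPKD+MMPP *Rhcg* made up 420 and 439 FPKM of that sum. The median of the 11 markers was 42.1 and 31.4 FPKM in WT and 29.5 and 31.3 FPKM in ADPKD+MMPP. Against WT, 1 was higher and 3 were lower there, 36.4% in all against 73.9% of all tested genes, with a median log2 change of −0.34. For endothelium the sum was 1110 and 937 in WT, 398 and 356 in ADPKD and 116 and 116 in ADPKD+MMPP, led by *Eng* or *Cdh5*. The macrophage sum was 68.3 and 68.0 in WT, 524 and 633 in ADPKD, and 1160 and 1212 in ADPKD+MMPP, led by *Cd68* in WT and *Lyz2* in the others. Of the remaining lists in ADPKD against WT, principal cells had 3 of 12 markers higher, thick ascending limb 1 of 6 lower, distal convoluted tubule 1 higher and 3 lower of 6, lymphocytes 1 higher and 1 lower of 3, and fibroblasts 5 higher and 1 lower of 7. With MMPP against ADPKD 9 intercalated cell and 7 principal cell markers rose, 3 principal cell markers fell, and 5 endothelial and 3 podocyte markers fell, while macrophage markers had 4 higher and 3 lower. Of all tested genes 70.9% were called there, against 60% of the podocyte and 71.4% of the endothelial markers. *Pparg* and *Lpl* are expressed by several of these cells, and the part of cell makeup in any change of the members was not tested.

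The tested genes whose pattern over the 6 libraries was most like that of each member were named by Pearson's r of log2(FPKM + 1), a description without a test. For *Pparg* they were *Emid1* (0.994), *Iigp1* (0.994) and *Slc27a3* (0.994), for *Ppard* *Gm17823*, *Cyp26b1* and *Hlx* (0.993 to 0.997), and for *Rxra* *Ppp1r2*, *Rabl6* and *Efnb1* (0.969 to 0.978). For *Ppargc1a* they were *Lnpep*, *Rps4l* and *Fra10ac1* (0.989 to 0.992), and for *Ppargc1b* *Sigirr*, *Oard1* and *Umod* (0.976 to 0.981). *Esrra* was most like *Daxx*, *Gm6665* and *Gm12966* (0.999 or more), *Nrf1* like *Znrf1*, *Cdk9* and *Ski*, *Tfam* like *Mblac1*, *Nop16* and *Noa1*, and *Polg* like *Dlg5*, *Mbnl1* and *Nek7* (0.997 to 0.999 for these 3 members). Such likeness was common, since 2135 of 9438 genes had r above 0.95 with *Esrra*, 2377 with *Polg* and 1249 with *Tfam*, but only 17 with *Rxra* and, of 9439, 9 with *Ppargc1b*.

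The stretch of DNA before the start of the genes was read for *Ppargc1a* and *Esrra*, the members whose calls in ADPKD+MMPP against ADPKD held under both centrings, from RefSeq sequence on GRCm38.p6. Promoter windows were found for 9 of the 10 members, 13 windows in all, *Ppargc1b* being the one without, and each was searched on both strands from 250 to 11 bases before the start. *Ppargc1a* lies on the minus strand at chr5:51567736-51567975 and *Esrra* on the minus strand at chr19:6921819-6922058. Both windows lie outside the annotated span of their own gene, and overlap with other genes was not checked. Capitals mark a cyclic AMP response element (CRE) half-site, TGACG or its reverse complement.
Ppargc1a: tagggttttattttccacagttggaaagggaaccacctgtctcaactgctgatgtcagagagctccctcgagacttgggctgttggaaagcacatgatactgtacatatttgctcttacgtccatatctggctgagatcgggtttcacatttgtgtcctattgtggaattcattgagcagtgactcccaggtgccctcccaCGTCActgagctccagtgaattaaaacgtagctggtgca
Esrra: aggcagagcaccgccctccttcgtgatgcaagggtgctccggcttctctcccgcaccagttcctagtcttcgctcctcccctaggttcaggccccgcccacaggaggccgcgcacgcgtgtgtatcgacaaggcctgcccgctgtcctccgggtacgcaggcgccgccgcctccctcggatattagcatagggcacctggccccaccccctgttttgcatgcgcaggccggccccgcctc
The *Ppargc1a* window holds the half-site once, and 16.9% of 32851 promoter windows of the same length hold it, among the members also *Polg* and *Ppara*. The full CRE, TGACGTCA, which contains the half-site, was in 1.44% of windows and in none of the members'. The *Esrra* window holds none of the letters searched, which were also the ERR element TCAAGGTCA (0.381% of windows), the nuclear receptor half-site AGGTCA that it contains (13.5%), the palindromic NRF1 site (3.35%) and the ETS core CCGGAAG (6.20%). Windows of *Pparg* and *Rxra* hold AGGTCA, that of *Ppara* holds the NRF1 site, and those of *Tfam* and *Polg* hold the ETS core. A match is a description of the letters only, and binding was not measured in these libraries.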

How the data were processed

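RNA-seq of DBA-positive kidney cells from WT, ADPKD and ADPKD+MMPP mice gave 6 libraries, 2 per group. The authors aligned reads to GRCm38/mm10 with HISAT2 2.1.0, counted them with featureCounts 1.6.0 and deposited FPKM for each library; the annotation and the step from counts to FPKM are not given in the sources used here. Of 55367 symbols, 53186 matched 1 gene of GENCODE vM21, which gave exon lengths, transcripts and positions. The depth of a library was the one at which FPKM times exon length fell on whole reads, within 0.1 of a read for values under 8 reads (98.7% to 99.2% whole).

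The filter kept genes that reached 1 FPKM in 2 or more libraries. limma 3.58.1 (R 4.3.3) fitted their log2(FPKM + 1) by group, without a replicate block. Python 3.11.15 was used for the rest. The members and lists were chosen with earlier results of these data known, as were both centrings, which use protein-coding genes. All members were named, with a fixed set of genes from the lists and, per list and comparison, up to 3 called genes highest and lowest in log2 change with a mean of at least 5 FPKM in a compared group and libraries that do not overlap between groups. Not every gene picked this way is given in the text. Likeness used genes with a mean of at least 5 FPKM in a group. The 21 alternatives were pseudocounts of 0.1 and 0.5, no filter and a filter of 5 FPKM, 4 scalings, a variance trend, only the groups compared, a replicate block, adjusted p, a fold of 2, the 2 centrings and leaving out each library. limma was tested on simulated data for ADPKD against WT with 14862 genes, where 98.5% of the 200 genes given a log2 change of 2 were called, as were 1.69% of the rest. Changes near the threshold of fold change and the traits of the ADPKD+MMPP libraries were not simulated.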

Additional observations from a re-analysis of the deposited data

How the results depend on the processing

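Results were recomputed under 21 alternatives, with the lone library of a group assumed to vary like the other groups where its replicate was left out. Members called in ADPKD against WT were 2, and 1 with a filter of 5 FPKM (fewer genes tested), 1 with adjusted p, 0 at a fold of 2 and 1 to 3 without 1 library (1 without WT replicate 1 and 1 without WT replicate 2), while all genes called went from 3970 to 2583 with that filter and 1951 at a fold of 2 (3533 to 4870 without 1 library). In ADPKD+MMPP against WT the members called went from 7 to 4 with the filter of 5 FPKM (6 to 8 without 1 library), and in ADPKD+MMPP against ADPKD from 6 to between 4 and 7 (5 to 6 without 1 library). Over the alternatives, all genes called went from 10984 to between 7344 and 11684 in ADPKD+MMPP against WT. They went from 10540 to between 7112 and 11086 in ADPKD+MMPP against ADPKD. With the replicate number as a block 2, 6 and 7 members and 4055, 10595 and 11038 genes were called in the 3 comparisons. Same-numbered libraries deviated together with r of 0.129, 0.01 and −0.01, and no label says that they share more than a number. The block changed no count by over 1.5 times. Of the log2 changes of single members, 171 of 186 values in ADPKD against WT, 161 of 186 in ADPKD+MMPP against ADPKD and 158 of 186 in ADPKD+MMPP against WT kept their direction and side of the threshold. These reversed. In ADPKD against WT, *Ppargc1a* was 0.0034 without WT replicate 2 and 0.0223 without ADPKD replicate 2 (−0.278 to 0.0223 without 1 library), and *Ppargc1b* was 0.0291 without ADPKD replicate 2 (−0.678 to 0.0291). In ADPKD+MMPP against ADPKD, centring by exon share gave 0.0797 for *Pparg*, 1.37 for *Ppargc1b* and −0.0251 for *Tfam*, centring by transcript number gave 0.81 for *Ppard*, 0.48 for *Nrf1* and 0.53 for *Polg*, and quantile normalization gave 0.21 for *Ppard* and 0.23 for *Ppargc1b*. In ADPKD+MMPP against WT, centring by exon share gave 1.20 for *Ppargc1b* and 1.09 for *Rxra*, centring by transcript number gave 0.13 for *Ppard*, 0.42 for *Nrf1*, 0.75 for *Rxra* and 0.40 for *Polg*, and *Rxra* was also 0.11 with median-of-ratios, 0.15 with upper-quartile and 0.0521 with quantile scaling and 0.0376 without ADPKD+MMPP replicate 1 (−0.128 to 0.0376 without 1 library). The cause was not tested. List medians moved by more than the spread between replicates in 6, 32 and 29 of 95 values in the 3 comparisons. In ADPKD+MMPP *Ppara*, *Pparg* and *Ppargc1b* rest on 14 to 44 reads a library, which limits their precision. Few low read numbers in those libraries are odd (6.48% and 6.64%), so their reads may not be independent and the precision may be lower still.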
